A study of Mus musculus with 6 samples.

Results

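Collagens, laminins, integrins and 5 glycoproteins of the extracellular matrix were followed in cultured mouse retinal ganglion cells (RGCs), the neurons whose axons form the optic nerve, after transduction with a control virus, with Sox11 or with Sox11K91A. The rule went by gene symbol and used no measured value, but it was chosen with earlier results of these data known. It took every gene named Col, Lam or Itg with a chain number, together with Itgav, Itgal, Itgam, Itgax, Fn1, Tnc, Tnr, Nid1 and Nid2. The rule found 84 of the 43346 Ensembl mouse genes in the tables, which were 44 collagen chains, 24 integrin subunits, 11 laminin chains and the 5 glycoproteins.

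Sox11 is a transcription factor of the high-mobility-group box family, and Sox11K91A is the same protein with lysine 91, a site at which the small modifier SUMO is attached, changed to alanine. The study asked whether blocking this modification makes Sox11 act more strongly on the survival of RGCs and the regrowth of their axons. It compared gene expression in cultured RGCs to explore possible mechanisms. In separate cultures with fewer cells per well, it reported lower RGC viability with Sox11 and with Sox11K91A than with the control virus. The sources gave no viability for the sequenced cultures. Control cultures received an adeno-associated virus (AAV) encoding EGFP, and the other cultures received AAVs encoding Sox11 or Sox11K91A together with EGFP, with 2 libraries in each of the 3 groups. In all groups RGCs purified by immunopanning against CD90, the product of Thy1, were grown at 250000 cells per well on plates coated with poly-D-lysine and laminin, in medium with forskolin, BDNF and CNTF. Virus was added 4 h after plating at about 100000 vector genomes per cell, and RNA was taken 72 h after plating. The sources gave the age of the cells as embryonic day 18 where the transduction for sequencing was described, as postnatal day 2 for the purification, and as postnatal day 0 in the names of the tables. Laminin protein was on the plate in every group, and the laminin transcripts counted here are those of the cells. The sources did not say whether the 2 libraries of a group came from separate cultures, so p-values measure only the spread between these libraries. The libraries of the control pair and of the Sox11 pair differed in sex-linked genes. Those of the Sox11K91A pair were close in these genes but differed in the level of Sox11 itself. Whether their spread is technical was not tested.

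Sox11 itself, counted over the endogenous gene and any viral reads that map to it, was at 234 and 332 CPM in control, 9178 and 14591 with Sox11 and 11971 and 7026 with Sox11K91A, where CPM is the gene's share of the scaled library in counts per 1000000. Sox11 was therefore far above control in all 4 libraries that received a Sox11 virus. The libraries held between 27521981 and 37061718 expected counts. Control replicate 2 and Sox11 replicate 2 were separated from the other 4 by the second principal component of all tested genes (18.2% of the variance), and each held less Xist and more of 4 Y-linked genes than the other library of its group. The RGC marker list (10 genes, Rbpms, Pou4f1 and Slc17a6 among them) summed to 9155 and 8415 in the control libraries, 6605 and 4102 with Sox11 and 5473 and 6736 with Sox11K91A, in TPM (transcripts per 1000000, a level per transcript length). Markers of fibroblasts summed to at most 15.2 TPM in any library, those of microglia to at most 5.08, of photoreceptors to at most 1.64 and of retinal pigment epithelium to at most 2.81, with 2 of 9 microglial markers, 1 of 5 photoreceptor markers and 1 of 5 pigment epithelium markers at 0 in every library. Other lists were higher, with amacrine markers at 324 to 647 TPM and those of astrocytes or Müller glia at 274 to 522 TPM. Endothelial markers reached 39.5 TPM and pericyte markers 31.5 TPM. In bulk RNA of this kind, fewer cells of a type and less RNA per cell cannot be told apart.

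Collagens are secreted as trimers of alpha chains. Fibril-forming types build cables, type IV builds the sheet of the basement membrane, and type VI forms beaded filaments. Laminins are trimers of 1 alpha, 1 beta and 1 gamma chain that hold the basement membrane together with nidogens and collagen IV. Integrins are receptors of 1 alpha and 1 beta subunit, in which the alpha subunit largely sets the ligand, so that alpha3, alpha6 and alpha7 with beta1 bind laminins, alpha5 with beta1 binds fibronectin, and alphav with beta5 or beta8 binds ligands that carry an arginine-glycine-aspartate motif. RGC axons grow on laminin in culture and along laminin-rich basal lamina in the embryonic retina and optic nerve, and integrins with the beta1 subunit are the main receptors for it.

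In control cultures the set was led by an integrin subunit. Itgb1, the beta subunit shared by most matrix-binding integrins, was at 151 and 142 TPM, followed by Col6a1, a chain of the beaded-filament collagen, at 114 and 116 TPM. Neither gene's range over the 2 control libraries overlapped that of the next. Below them came Col9a2, a chain of the fibril-associated collagen IX, at 103 and 74.5 TPM, Col4a2 of the basement membrane at 98.9 and 71.5 TPM, and Fn1, which encodes fibronectin, at 73.9 and 59.9 TPM. The ranges of these neighbours overlapped in that order, and Fn1 overlapped Itga3, the alpha3 laminin receptor subunit, at 70.6 and 56.3 TPM. Itga6, the alpha6 subunit, Col25a1, a transmembrane collagen made by neurons, and Col6a2 stood lower, with mean levels between 25.6 and 31.7 TPM. Lamb1, the laminin beta1 chain, and Col18a1, the source of endostatin, stood at means of 13.8 and 13.6 TPM. The chains most often taken as signs of fibroblasts were low, with Col1a1 at 2.12 and 0.9 TPM, Col1a2 at 0.78 and 0.6 TPM and Col3a1 at 2.56 and 0.79 TPM in control. The leukocyte subunits Itgam, Itgax and Itgb2 had at most 5 counts in any library, while Itgal, the alphaL subunit that pairs with beta2 in lymphocytes, was at 3.36 and 2.73 TPM in control and had between 87 and 220 counts in every library.

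**Figure D1:**
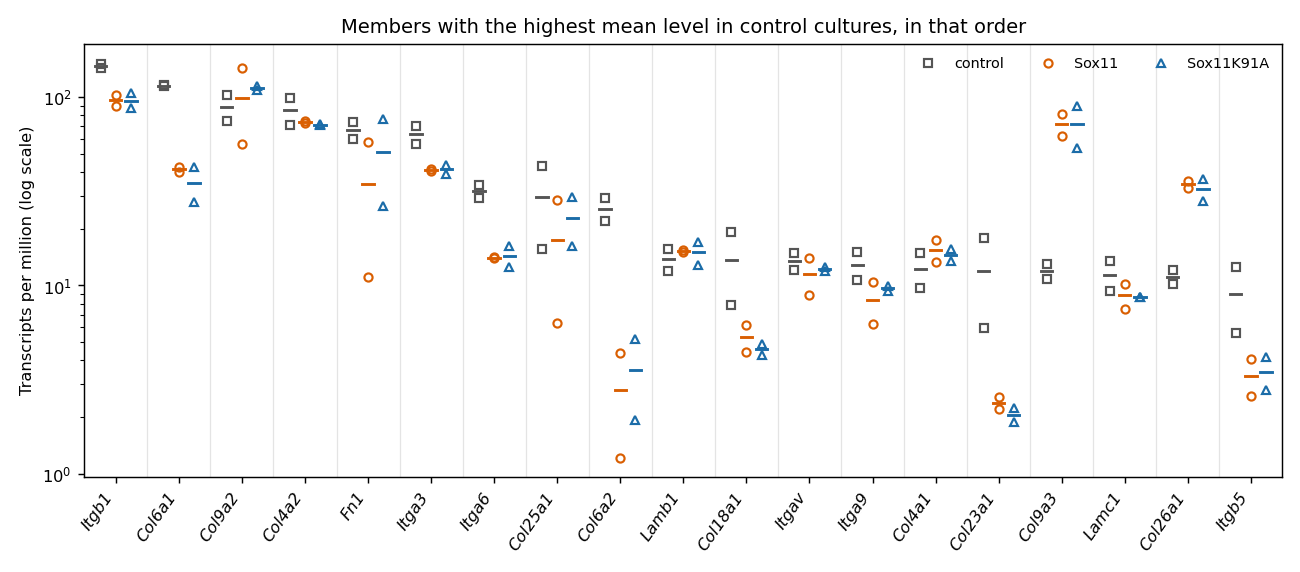
Level in TPM (log scale) of 19 of the 20 members with the highest mean in control cultures, ordered by that mean. Points are libraries (2 per group), short lines are group means. Col6a2 stands at 29.2 and 22 TPM in control and at most 5.23 TPM in the other 4 libraries, while Col9a3 stands at 13 and 10.9 TPM in control and at least 53.5 TPM in the others.

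The order changed with either virus. Col9a3, the alpha3 chain of collagen IX, ranked 17 of the 84 members in control and 4 with Sox11 and 3 with Sox11K91A. Col6a2 ranked 10 in control and 29 and 27 with the viruses. The integrins as a class summed, in TPM, to 319 and 285 in the control libraries, 201 and 193 with Sox11 and 185 and 211 with Sox11K91A, with no overlap between control and either virus. Most of this sum was Itgb1, Itga3 and Itga6, with control means of 146, 63.4 and 31.7 TPM. Of the 20 tested integrins, 7 had a log2 fold change above 0 with each virus. The laminins summed, in TPM, to 79.8 and 54.4 in the control libraries, 70.2 and 64.7 with Sox11 and 67 and 66.7 with Sox11K91A, and the control libraries spanned the values of the other 4. The collagens summed, in TPM, to 497 and 402 in the control libraries, 492 and 373 with Sox11 and 439 and 415 with Sox11K91A, and the groups overlapped.

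Of the 84 members, 76 had enough counts to be tested. The other 8 (Col6a5, Col14a1, Col22a1, Col28a1, Itga2, Itgam, Itgax and Itgb2) never exceeded 15 counts in a library. A gene was called when its false discovery rate over all 15747 tested genes was under 0.05 and its fold change above 1.2, in 1 limma-voom fit of the 6 libraries. With Sox11, 7 members were higher and 9 lower than control, 21.1% of those tested, beside 20.1% of all tested genes (9.96% higher and 10.2% lower). With Sox11K91A, 5 were higher and 7 lower, 15.8% of those tested, beside 10.6% of all tested genes (5.81% higher and 4.81% lower). The share of called members with Sox11 was thus near that of genes at large. The 5 genes called higher with Sox11K91A (Itgb8, Col5a2, Lama1, Col9a3 and Col26a1) were also called higher with Sox11, and 6 of the 7 called lower (Col6a1, Col6a2, Itgb1, Itga3, Itga6 and Tnc) were also called lower with Sox11. Both comparisons use the same 2 control libraries. Col6a3 and Col11a1 were called higher, and Itga5, Col16a1 and Itgb5 lower, with Sox11 alone, and Nid1 was called lower with Sox11K91A alone, but no member was called between Sox11K91A and Sox11.

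An unadjusted p under 0.05 was reached by 28 members with Sox11 and 26 with Sox11K91A, beside 38.0% and 30.6% of all tested genes. The median log2 fold change over the tested members was -0.51 with Sox11, beside 0.01 over all tested genes, and -0.29 with Sox11K91A, beside 0.02. Both Sox11 libraries lay above both control libraries for 14 members and below them for 28, which is 18.4% and 36.8% of those tested, where 30.9% and 30.6% of all genes did so. With Sox11K91A the counts were 16 above and 25 below, or 21.1% and 32.9%, beside 31.2% and 30.7% of all genes. With either virus the share of members above control was thus smaller than that of all genes. The share below control was larger than that of all genes with Sox11 and near it with Sox11K91A.

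Replicates of a group could differ. Among the 59 members with a mean of at least 1 CPM, the 2 libraries of a group differed more than 2-fold for 16 members in control, 20 with Sox11 and 5 with Sox11K91A, with median ratios of 1.39, 1.41 and 1.27. Whether a member was called depended on single libraries, as it did for genes at large. The size of the fold changes depended on them less for some members than for others. Over fits without 1 library, the log2 fold change with Sox11 ran from 3.11 to 3.69 for Col5a2 and from -1.64 to -1.50 for Col6a1. That of Itga5 ran from -3.70 to -2.05. Without Sox11 replicate 2, limma-voom called 0 of the 76 members and 0 of 16206 genes with Sox11. Without control replicate 2, it called 3 members higher and 12 lower with Sox11, beside 11.0% of all genes, and 0 members and 0 of all genes with Sox11K91A. Without Sox11K91A replicate 1, 0 members were called with Sox11K91A, 6 were higher and 4 were lower with Sox11, beside 0.116% and 10.4% of all genes. Without Sox11K91A replicate 2, 5 were higher and 2 lower with Sox11K91A, and 6 higher and 4 lower with Sox11, beside 1.92% and 10.1% of all genes. Without control replicate 1, 4 were higher and 12 lower with Sox11K91A, beside 15.5% of all genes. In each of these fits the lone library of a group was assumed to vary like the other groups. With control replicate 2 and Sox11 replicate 2 both left out, 4 members were higher and 15 lower with Sox11, beside 13.1% of all genes, and 6 higher and 23 lower with Sox11K91A, beside 25.8% of all genes. The log2 fold changes of the 17 members called in either comparison kept their sign in all 20 alternative fits.

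**Figure D2:**
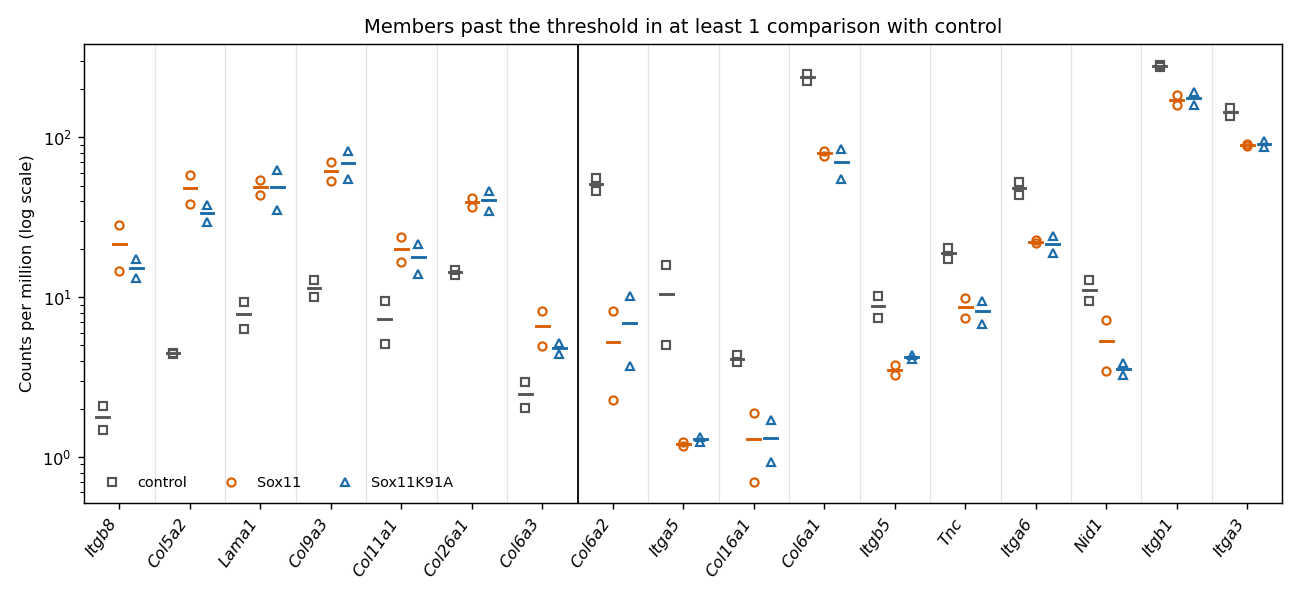
CPM (log scale) of the 17 members called in at least 1 comparison with control, with those that were higher left of the vertical line and those that were lower right of it. Points are libraries, short lines are group means. Col5a2 moves from 4.47 and 4.44 CPM in control to between 29.7 and 58.3 CPM in the other libraries, and Col6a2 from 55.9 and 46 CPM to between 2.26 and 10.1 CPM.

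Promoter sequence was read for 61 of the 84 members from RefSeq (GRCm38.p6), as the 250 bases before the annotated start, of which 12 were called members. Lama1, Col5a2, Col9a3, Col26a1 and Itga6 were the called members without an entry. The windows were searched on both strands for the SOX core letters ACAAAG and AACAAT, for the GC box GGGCGG and for the CCAAT box CCAAT, none of which is held within another. One or both of the SOX words stood in 8 of the 61 windows, and among the 12 called members in that of Itgb1 alone, where 24.0% of all 32851 promoter windows hold 1 or both. The windows of Col6a1, Itga3, Itgb8 and Nid1 overlapped annotated exons of the same gene, and that of Col16a1 an exon of Gm12963. For Itgb8 the RefSeq start lay 526 bases from the GENCODE start. The GC box stood in 31 of the 61 members' windows and in 32.7% of all windows. Of the called members, 4 are shown because they carry the results that follow: the shared beta1 subunit, a pair of collagen VI chains called in opposite directions with Sox11, and a collagen XI chain that rose. Capitals mark the GC box and its reverse complement CCGCCC, the CCAAT box reverse complement ATTGG, and, in Itgb1 only, the SOX letters in reverse complement, CTTTGT. The windows are chr8:128685404-128685653 (+ strand), chr10:76623631-76623880 (- strand), chr1:90843972-90844221 (- strand) and chr3:114030290-114030539 (+ strand), each written 5′ to 3′ toward the start.
Itgb1: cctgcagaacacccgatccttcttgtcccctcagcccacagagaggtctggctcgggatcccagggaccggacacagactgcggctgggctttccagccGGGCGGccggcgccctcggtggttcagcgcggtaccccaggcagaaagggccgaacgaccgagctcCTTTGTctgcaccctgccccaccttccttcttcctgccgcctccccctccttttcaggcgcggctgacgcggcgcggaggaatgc
Col6a2: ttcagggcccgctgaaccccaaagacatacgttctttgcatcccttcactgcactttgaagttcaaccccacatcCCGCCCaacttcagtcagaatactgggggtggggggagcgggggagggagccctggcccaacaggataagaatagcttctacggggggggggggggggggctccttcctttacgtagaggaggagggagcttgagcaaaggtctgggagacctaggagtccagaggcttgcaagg
Col6a3: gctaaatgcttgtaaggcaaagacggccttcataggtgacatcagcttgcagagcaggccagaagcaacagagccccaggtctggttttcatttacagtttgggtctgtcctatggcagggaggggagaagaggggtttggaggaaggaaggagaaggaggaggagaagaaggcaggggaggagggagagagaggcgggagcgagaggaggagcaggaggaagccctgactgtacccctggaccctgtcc
Col11a1: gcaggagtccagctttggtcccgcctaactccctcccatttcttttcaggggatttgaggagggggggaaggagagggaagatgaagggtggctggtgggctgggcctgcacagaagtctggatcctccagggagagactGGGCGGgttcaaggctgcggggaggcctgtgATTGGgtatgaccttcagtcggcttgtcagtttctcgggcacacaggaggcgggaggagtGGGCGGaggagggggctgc
The Itgb1 window held 1 GC box and 1 SOX match, that of Col6a2 1 GC box, that of Col11a1 2 GC boxes and 1 CCAAT box, and that of Col6a3 none of the letters searched. These are matches of letters and not measured binding sites.

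The laminin-binding integrin subunits Itgb1, Itga3 and Itga6 passed the test as lower with both viruses. Itgb1 (chr8:128685654-128733200, + strand) was at 275 and 284 CPM in control, 184 and 159 with Sox11 and 159.5 and 192 with Sox11K91A, and the control libraries lay above all others. The log2 fold change was -0.70 ± 0.16 (SE) with Sox11 (limma-voom adjusted p = 0.0271) and -0.67 ± 0.16 with Sox11K91A (limma-voom adjusted p = 0.0422). That is 1.63-fold and 1.6-fold lower, and the calls held in 13 and 11 of 20 alternative fits. Itga3 (chr11:95044474-95076801, - strand), the alpha3 subunit, was at 153 and 135 CPM in control, 90.6 and 88.6 with Sox11 and 87.6 and 95 with Sox11K91A. On the log2 scale it changed by -0.69 ± 0.14 (SE) with Sox11 and by -0.66 ± 0.14 with Sox11K91A (limma-voom adjusted p = 0.0212 and 0.0326), and each call held in 14 of 20 alternative fits. The fall of alpha3 was close in size to that of its partner, and the ratio of Itga3 to Itgb1 TPM within a library was 0.469 and 0.396 in the control libraries, 0.393 and 0.466 with Sox11 and 0.448 and 0.418 with Sox11K91A, with overlapping groups. Itga6 (chr2:71745616-71858416, + strand), the alpha6 subunit, was at 52.6 and 43.4 CPM in control, 22.7 and 21.8 with Sox11 and 18.8 and 24.2 with Sox11K91A. With Sox11 its log2 fold change was -1.10 ± 0.18 (SE, limma-voom adjusted p = 0.0149), and with Sox11K91A -1.16 ± 0.18 (limma-voom adjusted p = 0.0199). Its ratio to Itgb1 TPM was 0.227 and 0.206 in the control libraries, 0.137 and 0.156 with Sox11 and 0.143 and 0.155 with Sox11K91A, and this ratio was lower in all 4 virus libraries than in control. The third laminin receptor subunit, Itga7, was at 7.66 and 10.9 CPM in control, 4.55 and 5.85 with Sox11 and 4.0 and 4.46 with Sox11K91A, below control in all 4 libraries, but did not pass with Sox11 (log2 fold change -0.84 ± 0.28, limma-voom adjusted p = 0.0739) or Sox11K91A (-1.14 ± 0.29, limma-voom adjusted p = 0.0523). Together Itga3, Itga6 and Itga7 summed, in TPM, to 109 and 90.7 in the control libraries, 57 and 58.8 with Sox11 and 53.5 and 62.2 with Sox11K91A.

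Among the subunits that bind fibronectin and other ligands, Itga5 fell and 2 partners of alphav moved in opposite directions. Itga5, the fibronectin receptor alpha subunit, was at 5.01 and 15.8 CPM in control, 1.16 and 1.24 with Sox11 and 1.24 and 1.34 with Sox11K91A. The virus libraries lay close together and below both controls, which differed 3.16-fold from each other. It passed with Sox11, at a log2 fold change of -2.96 ± 0.77 (SE, limma-voom adjusted p = 0.0391), but not with Sox11K91A, at -2.86 ± 0.75 (limma-voom adjusted p = 0.0552). Without control replicate 2 the log2 fold change with Sox11 was -2.05 (limma-voom adjusted p = 0.0406), and the call held in 15 of 20 alternative fits. Itgb8, the beta8 subunit that with alphav binds and activates latent TGF-beta, had the largest rise of any called member, from 2.08 and 1.48 CPM in control to 14.6 and 28.4 with Sox11 and 17.3 and 13.2 with Sox11K91A. Both comparisons passed, with log2 fold changes of 3.58 ± 0.54 (SE) for Sox11 and 3.13 ± 0.55 for Sox11K91A (limma-voom adjusted p = 0.0128 and 0.0241). That is 12-fold and 8.75-fold higher. Itgb5, the beta5 subunit, was at 10.1 and 7.45 CPM in control, 3.75 and 3.26 with Sox11 and 4.1 and 4.32 with Sox11K91A. Its log2 fold change of -1.29 ± 0.28 (SE) with Sox11 passed (limma-voom adjusted p = 0.0252), and that of -1.02 ± 0.27 with Sox11K91A did not (limma-voom adjusted p = 0.0555). Their common partner Itgav was at 27.2 and 22.9 CPM in control, 22 and 26.4 with Sox11 and 23.2 and 22.3 with Sox11K91A, with log2 fold changes of -0.03 ± 0.17 and -0.12 ± 0.17, neither of which passed (limma-voom adjusted p = 0.903 and 0.679). Within a library the ratio of Itgb8 to Itgb5 TPM was 0.040 and 0.0591 in the control libraries, 1.43 and 1.73 with Sox11 and 1.54 and 0.791 with Sox11K91A. Beta5 thus exceeded beta8 in both control libraries, while the virus libraries lay on either side of 1. Assigned length enters this ratio too, as Itgb5 was at 2.6 and 4.05 TPM with Sox11, the reverse order of its CPM.

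The remaining integrins were not called. Itga4, which binds fibronectin and VCAM1, was at 26 and 6.49 CPM in control, 11.7 and 1.9 with Sox11 and 8.38 and 11.6 with Sox11K91A, and the control pair differed 4.01-fold and the Sox11 pair 6.17-fold. Itga9, a tenascin receptor subunit, was at 51.8 and 40.7 CPM in control, 35.7 and 21.1 with Sox11 and 32 and 34.8 with Sox11K91A, with a log2 fold change of -0.75 ± 0.26 with Sox11 (limma-voom adjusted p = 0.0787). Itgb4, the beta4 subunit that pairs with alpha6 in hemidesmosomes, was near the floor of detection, at 0.286 and 0.182 CPM in control, 0.728 and 1.09 with Sox11 and 1.8 and 0.823 with Sox11K91A, and the virus libraries lay above control without passing (limma-voom adjusted p = 0.0995 and 0.0733). The collagen-binding subunits Itga1, Itga10 and Itga11 had mean CPM over all libraries of 1.29, 4.28 and 0.295, and Itga2 had 2 counts in all. Itga1 was higher in control replicate 1 (5.33 CPM) than in any other library (0.186 to 0.72 CPM). Of the exon bases of Itga10, 33.5% are shared with the annotated gene Gm42957 on the same strand, so its counts are uncertain.

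Among the laminin chains, Lama1 alone was called. Lama1 (chr17:67697259-67822647), the alpha1 chain of the laminin of embryonic basement membranes, was at 9.34 and 6.36 CPM in control, 43.9 and 53.9 with Sox11 and 62.9 and 35.1 with Sox11K91A. The virus libraries lay at least 3.76-fold above the higher control. The log2 fold change was 2.69 ± 0.38 (SE) with Sox11 (limma-voom adjusted p = 0.0123) and 2.64 ± 0.38 with Sox11K91A (limma-voom adjusted p = 0.0186). That is 6.45-fold and 6.24-fold higher. Its partners in that laminin did not pass. Lamb1, the beta1 chain, was at 33.9 and 42.7 CPM in control, 37.4 and 40.9 with Sox11 and 44.5 and 37 with Sox11K91A, with log2 fold changes of 0.03 ± 0.18 and 0.09 ± 0.18 (limma-voom adjusted p = 0.905 and 0.786), and Lamc1, the gamma1 chain, was at 46.4 and 27.8 CPM in control, 27.2 and 29.4 with Sox11 and 29.9 and 28.7 with Sox11K91A. The ratio of Lama1 to Lamb1 TPM was 0.164 and 0.0779 in the control libraries, 0.622 and 0.754 with Sox11 and 0.775 and 0.567 with Sox11K91A, and the groups with virus did not overlap control. Lamc3, the gamma3 chain, had 9 and 10 counts in control, 7 and 0 with Sox11 and 11 and 12 with Sox11K91A. The other alpha chains Lama2, Lama3, Lama4 and Lama5 had log2 fold changes between -1.17 and -0.09 with Sox11 and between -0.98 and 0.61 with Sox11K91A, where Lama2 and Lama4 had values above 0, and none passed. Lama4 and Lama3 were lowest in Sox11 replicate 2, at 1.42 and 1.54 CPM, where the other 5 libraries held at least 3.35 and 3.82 CPM.

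The collagen VI chains separated. Col6a1 (chr10:76708792-76726168, - strand) and Col6a2 (chr10:76595762-76623630, - strand) are neighbours on chromosome 10, 85161 bases apart, and encode the alpha1 and alpha2 chains. Col6a1 was at 225 and 249 CPM in control, 82.5 and 76.9 with Sox11 and 55.2 and 84.8 with Sox11K91A. On the log2 scale it changed by -1.57 ± 0.21 (SE) with Sox11 and by -1.79 ± 0.22 with Sox11K91A (limma-voom adjusted p = 0.0121 and 0.014). Col6a2 was at 55.9 and 46 CPM in control, 8.23 and 2.26 with Sox11 and 3.69 and 10.1 with Sox11K91A, the deepest fall of any called member. With Sox11 its log2 fold change was -3.60 ± 0.57 (SE, limma-voom adjusted p = 0.0137), and with Sox11K91A -3.07 ± 0.52 (limma-voom adjusted p = 0.0231). That is 12.1-fold and 8.4-fold lower, beside 2.97-fold and 3.46-fold for Col6a1. Col6a3 (chr1:90765923-90843971, - strand), the alpha3 chain that joins both in the same trimer, was at 2.93 and 2.02 CPM in control, 4.99 and 8.18 with Sox11 and 5.18 and 4.39 with Sox11K91A. It passed with Sox11, at a log2 fold change of 1.44 ± 0.37 (SE, limma-voom adjusted p = 0.0391), but not with Sox11K91A, at 1.00 ± 0.39 (limma-voom adjusted p = 0.136). Per length, Col6a3 was the scarcest of these chains in both control libraries at 0.66 and 0.59 TPM, but in Sox11 replicate 2 it stood at 5.75 TPM and Col6a2 at 1.22 TPM. The call of Col6a3 with Sox11 held in 10 of 20 alternative fits. The ratio of Col6a1 to Col6a3 TPM was 173 and 196 in the control libraries, 22 and 6.97 with Sox11 and 15.3 and 28.8 with Sox11K91A. The length assigned to Col6a3 enters this ratio. From control to Sox11 its mean rose from 0.625 to 3.84 TPM, but from 2.48 to 6.58 CPM. All 6 collagen VI genes summed, in TPM, to 146 and 141 in the control libraries, 50.9 and 49.8 with Sox11 and 34.5 and 51.6 with Sox11K91A, most of it Col6a1. The alternative alpha chains Col6a4 and Col6a6 were at most 3.38 CPM in any library and were not called.

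**Figure D3:**
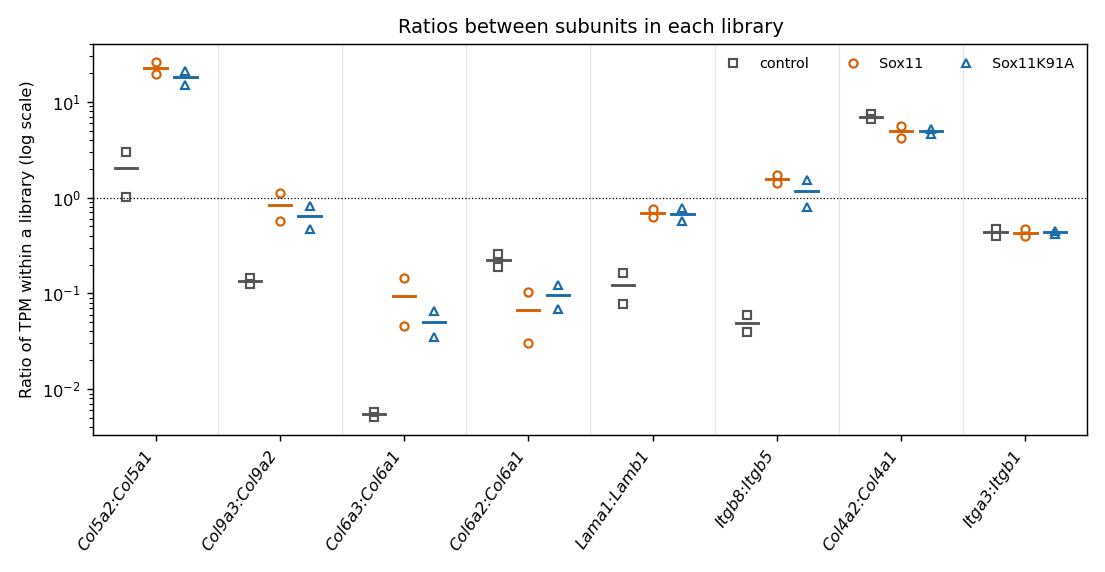
Ratio of TPM (log scale) between subunits of the same trimer or receptor family, within each library. Points are libraries, short lines are group means, and the dotted line is a ratio of 1. The ratios of Col5a2 to Col5a1, Col9a3 to Col9a2, Col6a3 to Col6a1, Lama1 to Lamb1 and Itgb8 to Itgb5 lie above control in all 4 virus libraries, those of Col6a2 to Col6a1 and Col4a2 to Col4a1 lie below, and those of Itga3 to Itgb1 overlap.

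Of the 5 collagen chains called higher with Sox11, Col5a2 and Col11a1 belong to the fibril-forming types and Col9a3 to a type that binds along fibrils. Col5a2 (chr1:45374321-45503282, - strand), the alpha2 chain of collagen V, was at 4.47 and 4.44 CPM in control, 38.4 and 58.3 with Sox11 and 37.6 and 29.7 with Sox11K91A. Both comparisons passed, with log2 fold changes of 3.41 ± 0.34 (SE) for Sox11 and 2.91 ± 0.34 for Sox11K91A (limma-voom adjusted p = 0.0083 and 0.014). That is 10.7-fold and 7.51-fold higher. Col5a1, the alpha1 chain with which it forms the usual trimer, was at 3.9 and 1.79 CPM in control, 1.89 and 3.86 with Sox11 and 2.61 and 1.82 with Sox11K91A and did not pass (log2 fold change 0.12 ± 0.51 with Sox11, limma-voom adjusted p = 0.884). The ratio of Col5a2 to Col5a1 TPM was 1.01 and 3.02 in the control libraries, 26.2 and 19.4 with Sox11 and 15.1 and 21 with Sox11K91A. Col3a1, which lies 24614 bases from Col5a2 on chromosome 1, did not rise with it, at 1.22 and 2.23 CPM in control, 0.728 and 6.15 with Sox11 and 1.4 and 1.1 with Sox11K91A. Col9a3 was at 12.9 and 9.99 CPM in control, 70.5 and 53.1 with Sox11 and 82.6 and 55.2 with Sox11K91A. The log2 fold change was 2.45 ± 0.29 (SE) with Sox11 (limma-voom adjusted p = 0.0112) and 2.59 ± 0.29 with Sox11K91A (limma-voom adjusted p = 0.0124). Its partners Col9a1 and Col9a2 did not pass, and Col9a2 was at 103 and 75.9 CPM in control, 141 and 54 with Sox11 and 109.8 and 122 with Sox11K91A. The ratio of Col9a3 to Col9a2 TPM was 0.126 and 0.146 in the control libraries, 0.572 and 1.11 with Sox11 and 0.825 and 0.466 with Sox11K91A. Col9a3 shares 234 exon bases, 6.07% of its own, with Tcfl5 on the other strand, which was at 0.394 to 1.6 CPM over the 6 libraries.

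Col11a1, the alpha1 chain of collagen XI, was at 9.52 and 5.11 CPM in control, 16.6 and 23.7 with Sox11 and 21.5 and 14 with Sox11K91A. Its log2 fold change of 1.57 ± 0.37 (SE) with Sox11 passed (limma-voom adjusted p = 0.0318), and that of 1.37 ± 0.38 with Sox11K91A did not (limma-voom adjusted p = 0.063). Col11a2 was at 12.3 and 15 CPM in control, 20.1 and 28.3 with Sox11 and 26.6 and 20.3 with Sox11K91A, above control in all 4 virus libraries, without passing (limma-voom adjusted p = 0.0606 and 0.0928). Col26a1, a secreted collagen with a small triple-helical part, was at 14.8 and 13.9 CPM in control, 41.7 and 36.6 with Sox11 and 46.1 and 34.8 with Sox11K91A. On the log2 scale it changed by 1.45 ± 0.20 (SE) with Sox11 and by 1.49 ± 0.20 with Sox11K91A (limma-voom adjusted p = 0.0122 and 0.0165). Col16a1, a fibril-associated chain, had a low level, at 4.33 and 3.92 CPM in control, 1.89 and 0.694 with Sox11 and 0.931 and 1.71 with Sox11K91A. It passed with Sox11, at a log2 fold change of -1.87 ± 0.50 (SE, limma-voom adjusted p = 0.0429), but not with Sox11K91A, at -1.70 ± 0.49 (limma-voom adjusted p = 0.0697). It was called in 8 of 20 alternative fits. Col5a3, the alpha3 chain of collagen V, had the largest log2 fold change that was not called, at 6.66 and 1.92 CPM in control, 0.328 and 0.151 with Sox11 and 0.186 and 0.789 with Sox11K91A. The log2 fold change was -3.84 ± 1.17 with Sox11 (limma-voom adjusted p = 0.0597) and -3.09 ± 1.02 with Sox11K91A (limma-voom adjusted p = 0.0951), and the gene passed in 7 and 4 of 19 alternative fits.

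The basement membrane and transmembrane collagens were not called, although several were abundant. Col4a1 and Col4a2 lie head to head on chromosome 8, and their RefSeq starts, at 11312826 on the - strand and 11312805 on the + strand, put 22 bases in both transcripts. Col4a1 was at 48.2 and 34.6 CPM in control, 42.8 and 55.7 with Sox11 and 50.9 and 42.7 with Sox11K91A, and Col4a2 at 314 and 249 CPM in control, 234 and 227 with Sox11 and 228 and 228 with Sox11K91A. The log2 fold changes of Col4a2 were -0.28 ± 0.16 and -0.30 ± 0.16 (limma-voom adjusted p = 0.235 and 0.25), and those of Col4a1 were 0.27 ± 0.22 and 0.20 ± 0.22. The ratio of Col4a2 to Col4a1 TPM was 6.67 and 7.38 in the control libraries, 5.64 and 4.18 with Sox11 and 4.61 and 5.26 with Sox11K91A, where the usual trimer holds more alpha1 than alpha2. The other collagen IV chains were at most 2.72 CPM in any library. Col25a1 was at 104 and 50.9 CPM in control, 73.5 and 17.3 with Sox11 and 40.7 and 76.9 with Sox11K91A, with log2 fold changes of -1.06 ± 0.68 and -0.38 ± 0.65 that did not pass (limma-voom adjusted p = 0.291 and 0.742). Col23a1, another transmembrane collagen, was at 16.5 and 54.5 CPM in control, 6.04 and 6.91 with Sox11 and 5.24 and 6.28 with Sox11K91A, and Col18a1 at 19.4 and 52.3 CPM in control, 10.7 and 14.9 with Sox11 and 10.6 and 12.3 with Sox11K91A. Control replicate 2 was 3.30-fold above control replicate 1 for Col23a1 and 2.70-fold for Col18a1, and the virus libraries lay below both. Col23a1 had log2 fold changes of -2.26 ± 0.65 and -2.44 ± 0.67 (limma-voom adjusted p = 0.0517 and 0.0619), and Col18a1 of -1.36 ± 0.49 and -1.53 ± 0.50 (limma-voom adjusted p = 0.0892 and 0.0927). Col23a1 passed in 10 of 20 alternative fits with Sox11 and 8 with Sox11K91A, and Col18a1 in 5 and 6.

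**Figure D4:**
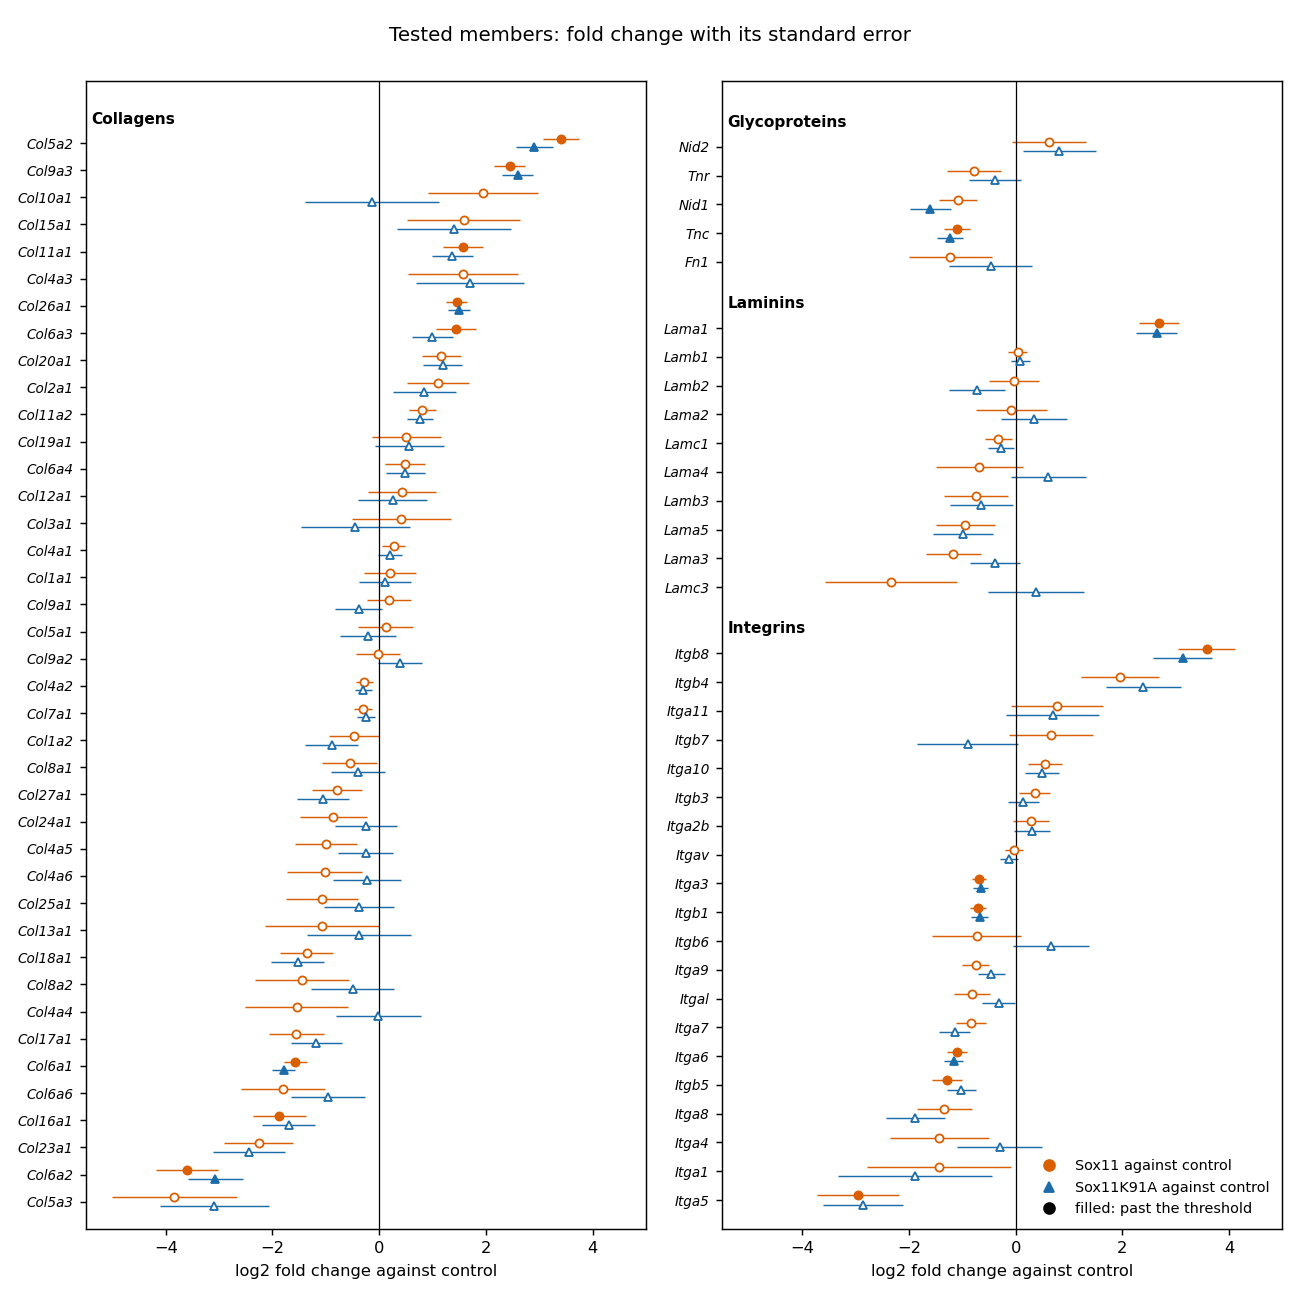
Log2 fold change against control with its standard error for 75 of the 76 tested members, with Sox11 as circles and Sox11K91A as triangles. Filled symbols passed the threshold. Both comparisons use the same control libraries. Itgb8 stands highest at 3.58 and 3.13 and, among filled symbols, Col6a2 lowest at -3.60 and -3.07.

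Of the 5 glycoproteins, Tnc fell with both viruses. Tnc, which encodes tenascin-C, was at 20.5 and 17.4 CPM in control, 7.46 and 9.95 with Sox11 and 6.8 and 9.5 with Sox11K91A. With Sox11 its log2 fold change was -1.10 ± 0.24 (SE, limma-voom adjusted p = 0.0262), and with Sox11K91A -1.23 ± 0.25 (limma-voom adjusted p = 0.0305). Nid1, which encodes the nidogen that bridges laminin and collagen IV, was at 12.8 and 9.47 CPM in control, 3.46 and 7.21 with Sox11 and 3.26 and 3.88 with Sox11K91A. Its log2 fold change was -1.61 ± 0.38 with Sox11K91A (limma-voom adjusted p = 0.0449) and -1.08 ± 0.36 with Sox11, which did not pass (limma-voom adjusted p = 0.0723). Tnr, which encodes tenascin-R, and Nid2 did not pass either. Fn1 was at 206 and 116 CPM in control, 149 and 29.7 with Sox11 and 68.8 and 181 with Sox11K91A. The Sox11 pair differed 5.02-fold and the Sox11K91A pair 2.64-fold, and both groups overlapped control. The log2 fold changes were -1.23 ± 0.78 and -0.47 ± 0.78 (limma-voom adjusted p = 0.29 and 0.73). Short stretches of antisense annotation overlap 2.26% of the Tnc exon bases and 2.06% of those of Nid1, and the strand setting of the counting is not given in the sources used here.

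No member was called between Sox11K91A and Sox11. Both Sox11K91A libraries lay above both Sox11 libraries for 7 of the 76 tested members and below them for 6, beside 13.3% and 13.4% of all tested genes. In the direct comparison 0 of the 76 were called by limma-voom, edgeR or DESeq2, and 0 members had an unadjusted p under 0.05 in limma-voom, where 108 of 15747 genes (0.686%) did and 0.0% were called. Among the 17 members called against control, the difference of Sox11K91A from Sox11 on the log2 scale was at most 0.53 ± 0.68 (SE) for Col6a2, -0.53 ± 0.43 for Nid1 and -0.51 ± 0.23 for Col5a2 (limma-voom adjusted p = 1.00 for each). With 2 libraries per group these intervals are wide, and a difference that did not pass is not shown to be absent.

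The libraries of 1 virus group also differed in Sox11 itself, and some members differed with it. In each virus group the library with more Sox11 reads held less Fn1, Col25a1, Itgb1 and Col6a2 and more Col11a1 and Itgb8. Over the 4 virus libraries, the level of 10 tested members fell at every step of Sox11 CPM and that of 9 rose at every step, or 13.2% and 11.8% of the members, beside 13.9% and 12.4% of all tested genes. The share of members so ordered was near that of genes at large. Sox11 replicate 2, the library with most Sox11, was also 1 of the 2 libraries that stood apart, and the part of either in these differences was not tested.

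**Figure D5:**
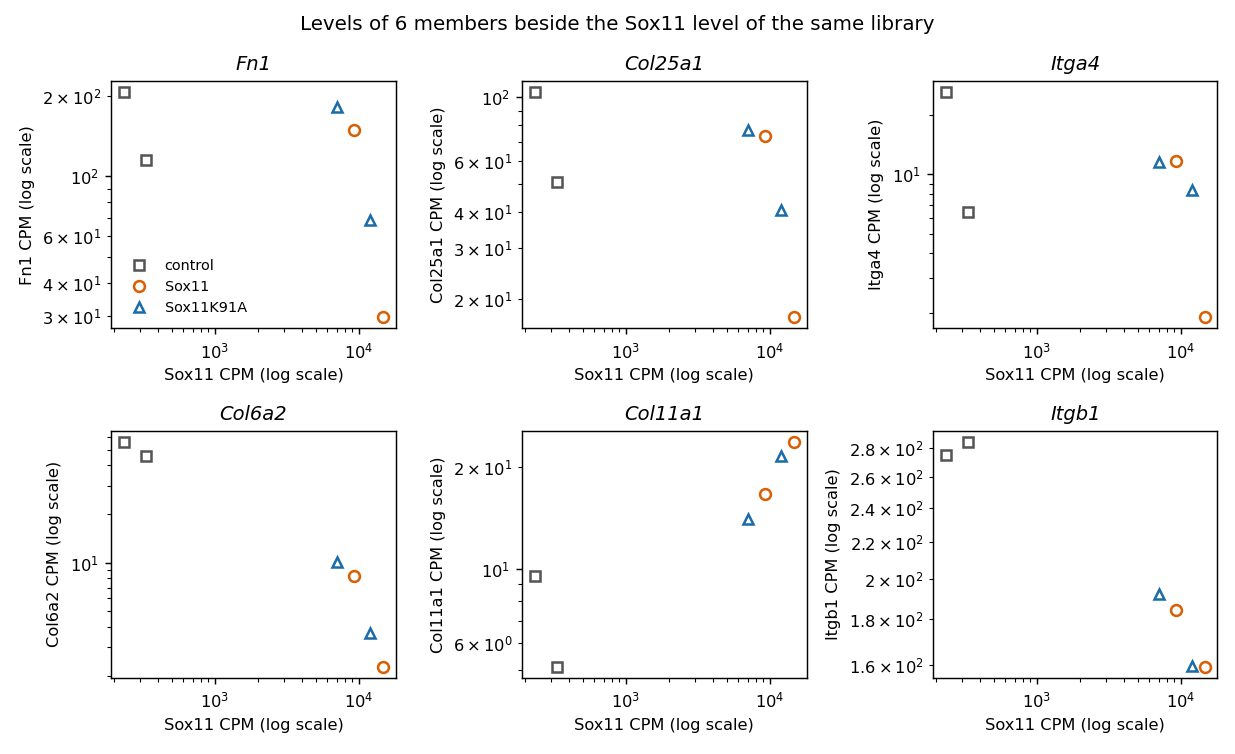
CPM of 6 members against the CPM of Sox11 in the same library (both axes on log scales). Each point is 1 library, with squares for control, circles for Sox11 and triangles for Sox11K91A. Among the 4 virus libraries Fn1 runs from 181 CPM at the lowest Sox11 level to 29.7 CPM at the highest, and Col11a1 from 14 to 23.7 CPM.

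Genes that build or use the matrix were read from 4 further lists. Of 30 tested genes of collagen biosynthesis, 0 were higher and 6 lower with Sox11, and 0 and 5 with Sox11K91A, which is 20.0% and 16.7% of them beside 20.1% and 10.6% of all tested genes. With both directions counted, the share with Sox11 was that of genes at large. By direction it was not, since every called gene of the list was lower. Of all tested genes, 10.2% were called lower and 9.96% higher with Sox11, and 4.81% and 5.81% with Sox11K91A. The share called lower was thus larger in this list than among all genes with either virus. Plod1, a lysyl hydroxylase of procollagen, was at 24.1 and 19.7 CPM in control, 6.26 and 3.32 with Sox11 and 5.37 and 8.5 with Sox11K91A (log2 fold change -2.27 ± 0.35 and -1.69 ± 0.31, limma-voom adjusted p = 0.0131 and 0.027). Crtap, part of the prolyl 3-hydroxylation complex, was at 13.7 and 14.3 CPM in control, 4.7 and 4.77 with Sox11 and 4.69 and 5.8 with Sox11K91A (log2 fold change -1.56 ± 0.22 and -1.43 ± 0.22). P4ha2, a prolyl 4-hydroxylase subunit, fell with Sox11 by 1.47 on the log2 scale. The collagen chaperone Serpinh1 did not pass, at 21.8 and 15.2 CPM in control, 18.5 and 15.5 with Sox11 and 19.8 and 22 with Sox11K91A. The list median was -0.46 with Sox11 and -0.41 with Sox11K91A, beside 0.01 and 0.02 over all tested genes.

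Of 40 tested genes of the integrin adhesion complex, which couples integrins to actin, 5 were higher and 5 lower with Sox11, and 2 and 1 with Sox11K91A, or 25% and 7.5% of them. Flna, the actin crosslinker filamin A, rose to 471 and 529 with Sox11 and 566 and 486 with Sox11K91A, from 287 and 233 CPM in control. Elmo1, which acts with Dock proteins on Rac, rose with Sox11 (log2 fold change 1.00 ± 0.28), while Actn1, alpha-actinin 1, fell with both viruses (-1.31 ± 0.21 and -1.30 ± 0.20), and Itgb1bp1, which binds the beta1 tail, fell with Sox11 (-1.0 ± 0.20). Of 13 non-integrin matrix receptors, 0 were higher and 2 lower with Sox11, and 0 and 1 with Sox11K91A, or 15.4% and 7.69%. Bcam, a receptor for laminin alpha5, was at 103 and 86.8 CPM in control, 26 and 4.49 with Sox11 and 13.4 and 25.4 with Sox11K91A (log2 fold change -3.20 ± 0.65 and -2.36 ± 0.58, limma-voom adjusted p = 0.0221 and 0.0479), and Gpc1, a cell-surface heparan sulfate proteoglycan, fell with Sox11 by 0.64 on the log2 scale. Of 32 tested genes of other basement membrane and matrix glycoproteins, 4 were higher and 4 lower with Sox11, and 4 and 2 with Sox11K91A, or 25% and 18.8%. These shares stand beside 20.1% and 10.6% of all tested genes. Agrn, the basement membrane proteoglycan agrin, was at 538 and 373 CPM in control, 922 and 979 with Sox11 and 1027 and 899.8 with Sox11K91A (limma-voom adjusted p = 0.0183 and 0.0263). Fbln1 also rose with both viruses, and Tgfbi and Npnt fell with Sox11, Npnt from 271 and 153 to 61.4 and 15.7 CPM.

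The summed level of the RGC markers was lower, and that of the glial markers higher, in all 4 virus libraries than in control. The marker calls given here stand beside 9.96% of all tested genes called higher and 10.2% called lower with Sox11. With Sox11K91A these shares were 5.81% and 4.81%, and no marker list held more than 10 tested genes. Of the 10 RGC markers, 0 were higher and 4 lower with Sox11 (Thy1, Slc17a6, Nefl and Nrn1), and 0 and 2 with Sox11K91A. Rbpms was at 232 and 242 CPM in control, 225 and 194 with Sox11 and 199.9 and 232 with Sox11K91A. The 8 markers of astrocytes or Müller glia summed, in TPM, to 274 and 281 in the control libraries, 509.7 and 522 with Sox11 and 495 and 493 with Sox11K91A, and Glul, glutamine synthetase, was the 1 marker called. The 8 endothelial markers summed, in TPM, to 28.3 and 39.5 in the control libraries, 11.2 and 5.62 with Sox11 and 10.3 and 13.7 with Sox11K91A, with Egfl7 lower in both comparisons and Pecam1 and Tek higher with Sox11K91A. The 8 pericyte markers summed, in TPM, to 16.9 and 17.1 in the control libraries, 15.4 and 25.6 with Sox11 and 31.5 and 18.1 with Sox11K91A, with Notch3 higher in both, and the 9 fibroblast markers to 5.12 and 7.59 in the control libraries, 3.76 and 15.2 with Sox11 and 3.13 and 3.31 with Sox11K91A, with Pdgfra higher with Sox11. The 5 amacrine markers summed, in TPM, to 647 and 324 in the control libraries, 502 and 418 with Sox11 and 496 and 497 with Sox11K91A, with Slc6a9 lower in both. The part of these cells in the changes of collagens, laminins and integrins was not tested.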

How the data were processed

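RNA from cultured mouse RGCs was sequenced in 6 libraries, 2 for each of control, Sox11 and Sox11K91A. The authors aligned the reads to mm10 with STAR and counted them with RSEM, and the deposited tables give an expected count, a TPM and a length for each gene in each library. Versions, the annotation and the strand setting are not given in the sources used here. Genes were named and located by GENCODE M21 (GRCm38, the same assembly as mm10), which matched 98.0% of the Ensembl genes. The 96 spike-in and 26248 numbered entries were left out.

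Expected counts were rounded, filtered by filterByExpr and scaled by TMM in edgeR 4.0.16, and tested with voom in limma 3.58.1 over all 6 libraries, with Benjamini-Hochberg adjustment over all 15747 genes kept. A call needed FDR under 0.05 and a fold change above 1.2, as in the study's methods. CPM used the scaled library sizes, and TPM was used to compare levels between genes. The length that RSEM assigned a gene differed between libraries, so CPM and TPM can differ in their ratio between libraries. The fit was tested on simulated independent counts, for the recovery of fold changes set in them. That simulation did not hold libraries that stood apart, so it does not measure the false discovery rate in these data. Members and lists were chosen with earlier results of these data known. Full values were given for called members with a mean of at least 1 CPM, for the 12 members with the highest control TPM and for the 3 largest fold changes that did not pass. Values of 1 member are not reported here. Alternatives were edgeR's quasi-likelihood test, DESeq2 1.42.0, quality weights, log2(TPM + 1) with limma-trend, other scalings, filters, blocks and thresholds, and leaving out libraries. Depth was 27521981 to 37061718 expected counts per library.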

Additional observations from a re-analysis of the deposited data

Results flagged for a closer look

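Lamc3 lay on opposite sides of control with the 2 viruses. It had 9 and 10 counts in control, 7 and 0 with Sox11, and 11 and 12 with Sox11K91A, so that both Sox11 libraries lay below both controls and both Sox11K91A libraries above them. The fitted difference of Sox11K91A from Sox11 was 2.71 on the log2 scale, which depends on the library with 0 counts, and did not pass (limma-voom adjusted p = 1.00). Neither comparison with control passed, at log2 fold changes of -2.33 ± 1.24 (SE) with Sox11 and 0.37 ± 0.90 with Sox11K91A (limma-voom adjusted p = 0.213 and 0.823), and the second ran from -0.15 to 0.52 over the alternative fits.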

How the results depend on the processing

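With limma-voom, 7 members were higher and 9 lower with Sox11, and 5 higher and 7 lower with Sox11K91A. DESeq2 called 9 higher and 15 lower with Sox11, and 9 higher and 15 lower with Sox11K91A, beside 27.5% and 20.0% of all genes. Quality weights called 4 higher and 4 lower with Sox11 and 5 higher and 12 lower with Sox11K91A (6.22% and 8.89% of all genes). On log2(TPM + 1), 5 were higher and 3 lower with Sox11K91A (5.94% of all genes), and with only the 2 groups compared in the fit, 6 were higher and 4 lower with Sox11 (10.4%). Setting control replicate 2 and Sox11 replicate 2 apart as a block gave 8 higher and 19 lower with Sox11 and 6 higher and 14 lower with Sox11K91A (29.0% and 18.4% of all genes), and leaving both out gave 4 higher and 15 lower with Sox11 and 6 higher and 23 lower with Sox11K91A (13.1% and 25.8%). Leaving out each library in turn gave 0 to 10 higher and 0 to 13 lower with Sox11, and 0 to 5 higher and 0 to 12 lower with Sox11K91A. The cause was not tested, except that fits without a library hold fewer samples. Over all genes, the calls with Sox11 ran from 0 without Sox11 replicate 2 to 4562 with the block for the libraries that stood apart, beside 3171, and those with Sox11K91A from 0 without control replicate 2 to 4108 with both of those libraries left out, beside 1672. Between Sox11K91A and Sox11, 0 members were called under every alternative run. No named member reversed a call. The replicate numbers were not taken to pair the libraries, since deviations of same-numbered libraries correlated at 0.26 for control and Sox11, at -0.04 for control and Sox11K91A and at -0.28 for Sox11 and Sox11K91A. With the replicate block, 6 members were higher and 11 lower with Sox11, and 5 higher and 7 lower with Sox11K91A, with 0 between the viruses. A crossed block in which the Sox11K91A numbers were exchanged, added after seeing the data, gave 8 higher and 15 lower with Sox11 and 8 higher and 15 lower with Sox11K91A. The 2 libraries set apart as a block or both left out were those that stood apart in these same data. Depth limits the 8 untested members and the chains near 1 CPM.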
